A study of Bos taurus with 8 samples.

Results

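The genes described here write, copy and remove DNA methylation in bovine embryonic stem cells (bESCs), except *MBD3*, a subunit of a chromatin complex. They are 9 genes chosen by name, *DNMT1*, *UHRF1*, *DNMT3A*, *DNMT3B*, *TET1*, *TET2*, *TET3*, *TDG* and *MBD3*, of 32640 genes listed in the deposited counts, and all 9 had enough counts to be tested. RNA was sequenced from 4 lines of bESCs, called A, C, D and E, each at 5% O2 (low oxygen) on MEF (irradiated mouse embryonic fibroblasts, a feeder layer) and again after transition to feeder-free culture on vitronectin (VTN). There are 8 libraries, 4 for each condition. The cells had been derived on MEF from in vitro-produced early or full blastocysts and were kept in NBFR medium (FGF2 and the WNT inhibitor IWR-1), and all are recorded as genotype XX. Cells were collected on MEF at passages 15 to 17 and without feeders at passages 20 to 22, so passage and matrix changed together and cannot be told apart. The sample titles carry the medium name NBFRA in both conditions, whereas the study's methods add Activin A for culture without feeders. If Activin A was added only there, it also changed together with matrix. The study's methods mention sequencing batches and made no added correction for them. Which of these 8 libraries shared a batch is not given in the sources used here. Each line is 1 culture series, and the records do not say which lines came from early and which from full blastocysts.

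Methylation of cytosine in CpG dinucleotides is set by the de novo methyltransferases DNMT3A and DNMT3B. At replication it is copied to the new strand by DNMT1, which UHRF1 brings to hemimethylated DNA. The TET enzymes are oxygen- and 2-oxoglutarate-dependent dioxygenases that oxidise 5-methylcytosine, and TDG is the glycosylase that excises the further oxidised bases. MBD3 belongs to the NuRD (nucleosome remodelling and deacetylase) complex. In pluripotent cells DNMT3B is abundant and is often used as a marker of the primed state, and the 3 TET genes differ in their expression between early lineages.

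Total counts on genes ranged from 44268717 to 102351560 per library, and line D without feeders, which had the most, stood apart. Levels are CPM (counts scaled to a common library size) after TMM normalization, which corrects for differences in library composition. The pluripotency markers *POU5F1* and *SOX2* had means of 2048 and 432 CPM on MEF and 1850 and 339 CPM in feeder-free conditions. None of the 5 pluripotency markers passed in either edgeR fit. On condition alone 4 of them had an unadjusted P-value under 0.05, where 21.6 percent of all genes tested did. Of 15 fibroblast markers, 13 had enough counts to be tested, and their summed level was 613 to 720 CPM on MEF and 375 to 1410 CPM in feeder-free conditions, most of it *COL1A1* and *FBLN1*. None of the 13 passed edgeR's test on condition alone, and 3 had an unadjusted P-value under 0.05, against the same 21.6 percent of all genes. With lines paired, *COL1A2* was lower and *COL3A1* and *POSTN* were higher in feeder-free conditions, named after their values were seen. In that fit 4.53 percent of all genes passed as lower and 5.52 percent as higher. The other markers, *TWIST2* and *FAP*, had at most 32 and 6 counts in any library, and *FAP* and *TWIST2* were at 0 in at least 1 library. These are bulk libraries, so fewer cells with a transcript and less transcript per cell cannot be told apart.

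In feeder-free bESCs the TET transcripts were lower, with mean levels of 69.1 percent (*TET1*), 51.8 percent (*TET2*) and 66.7 percent (*TET3*) of those on MEF. The methyltransferases *DNMT1*, *DNMT3A* and *DNMT3B* had 112, 98.4 and 105 percent of the MEF mean, *UHRF1* had 125 percent, *TDG* 96.8 percent and *MBD3* 118 percent. With edgeR's quasi-likelihood test on condition alone, with adjusted p below 0.05 and at least a 1.5-fold change required, none of the 9 genes passed, against 0.724 percent of all 15744 tested genes called higher and 1.00 percent called lower. At an unadjusted P-value under 0.05 the 3 TET genes were below it, where 21.6 percent of all genes tested reached that level. With limma-voom 0 of the 9 passed, where 229 of all 15744 genes did. DESeq2 and edgeR's likelihood ratio test passed 1 each, *TET2*, where 1212 and 837 of all genes passed. The same lines were grown in both conditions, so a fit with line as a paired term (replicate block) was made. In that fit *TET2* fell by 0.99 on the log2 scale and alone of the 9 passed, against 4.53 percent of all genes called lower and 5.52 percent called higher.

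**Figure D1:**
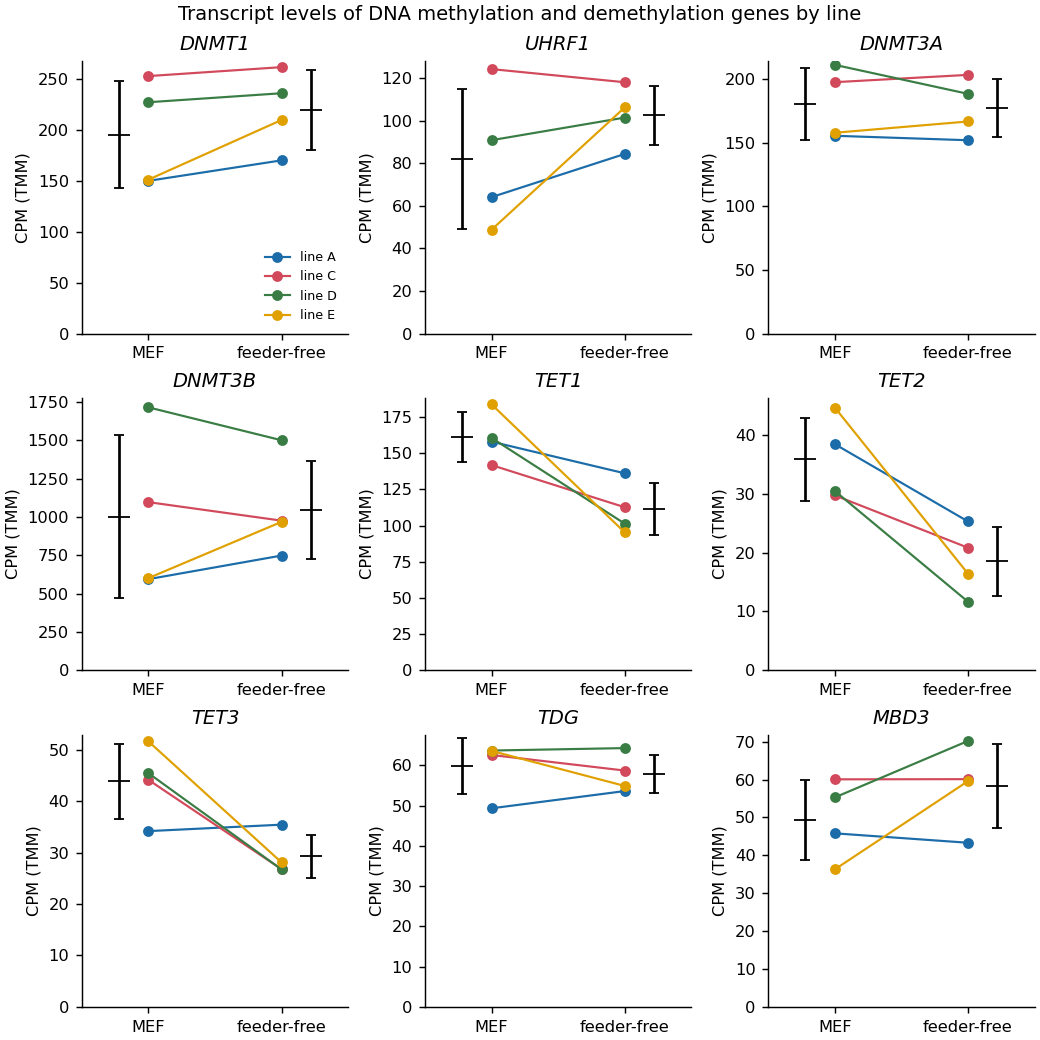
TMM-normalised CPM of each gene (vertical axis, from 0) on MEF and in feeder-free conditions, with each coloured line joining the 2 libraries of a bESC line and black bars giving the mean and SD of 4 libraries. The feeder-free libraries lie below all MEF libraries for TET1 and TET2, and the lines are far apart for DNMT3B.

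*TET2*, on chromosome 6 from 19895939 to 20039291 (all positions are on the ARS-UCD2.0 build), showed the largest difference of the 9. On MEF it had 38.5 CPM in line A, 29.8 in line C, 30.5 in line D and 44.7 in line E, and in feeder-free conditions 25.3, 20.8, 11.7 and 16.4 CPM in the same order. All 4 feeder-free libraries lay below all 4 MEF libraries. Its mean was 35.9 ± 7.09 CPM (SD, n = 4) with feeders and 18.6 ± 5.86 CPM (SD, n = 4) without, fitted as -0.95 on the log2 scale (standard error 0.24, 95% interval -1.50 to -0.40, adjusted p = 0.0683 by edgeR's quasi-likelihood test). In the paired fit (replicate block) it was -0.99 (standard error 0.18, adjusted p = 0.00850 by edgeR's quasi-likelihood test). The log2 ratios of *TET2* within lines were -0.60 (A), -0.51 (C), -1.39 (D) and -1.44 (E), so *TET2* was lower in 4 of 4 lines with a larger difference in D and E. *TET2* passed the paired test without any 1 of the lines, at adjusted p of 0.0121 to 0.0389 from edgeR's test, and so also without line D, which has the deep library. No annotated gene overlaps it.

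*TET1*, on chromosome 28 from 24907396 to 25044214, had 158, 142, 161 and 184 CPM on MEF in lines A, C, D and E and 136, 113, 101 and 95.3 CPM in feeder-free conditions. The groups did not overlap here either, though line A in feeder-free conditions came close to line C on MEF. Of all tested genes, 8.36 percent had every feeder-free library below every MEF library, and of the 9 genes *TET1* and *TET2* did. None of the 9 had every feeder-free library above every MEF library, as 6.21 percent of all genes did. *TET1* averaged 161 ± 17.3 CPM (SD, n = 4) with feeders and 111 ± 18.0 CPM (SD, n = 4) without, which is -0.53 on the log2 scale in the fit (standard error 0.14, 95% interval -0.85 to -0.21, adjusted p = 0.0766 by edgeR's quasi-likelihood test). The paired fit (replicate block) gave -0.54 with an adjusted p of 0.0269 from edgeR's test, short of the fold change threshold of 0.585 on the log2 scale. *TET1* was lower in 4 of 4 lines, as were 20.7 percent of all genes tested, with log2 ratios of -0.21 in line A to -0.95 in line E. Without any 1 line its adjusted p in the paired edgeR fit ranged from 0.0218 to 0.123. The small RNA genes within *TET1* that the counts list held at most 6 reads in any library.

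*TET3*, on chromosome 11 from 10555697 to 10667899, had 34.2, 44.1, 45.4 and 51.6 CPM on MEF in lines A, C, D and E, and 35.4, 26.8, 26.7 and 28.1 CPM in feeder-free conditions. Line A differed from the others. It had the lowest level of the lines on MEF and the highest in feeder-free conditions, with a log2 ratio of 0.05, whereas lines C, D and E had -0.72, -0.77 and -0.88. *TET3* averaged 43.8 ± 7.22 CPM (SD, n = 4) with feeders and 29.2 ± 4.16 CPM (SD, n = 4) without, or -0.58 on the log2 scale as fitted (standard error 0.16, 95% interval -0.94 to -0.23, adjusted p = 0.0781 by edgeR's quasi-likelihood test). The paired fit (replicate block) gave the same -0.58 at an adjusted p of 0.0381 from edgeR's test, just short of the fold change threshold. Without line A (a setting chosen after seeing the data) *TET1*, *TET2* and *TET3* all passed the paired test, at log2 fold changes of -0.65, -1.12 and -0.79. In that setting 1651 of 15764 genes tested passed, against 1057 without line C, 742 without line D and 1159 without line E. Without line C, D or E, *TET2* alone of the 9 passed, and the adjusted p of *TET3* over the 4 settings was 0.00859 to 0.161 from edgeR's test. In the paired fit 3 of the 9 genes, the TETs, had an adjusted P-value under 0.05 at any fold, all lower, where 8.12 percent of all genes tested were lower and 7.67 percent higher at that level. On condition alone 0 of the 9 were under 0.05 at any fold by edgeR's test, where 1.93 percent of all genes were.

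**Figure D2:**
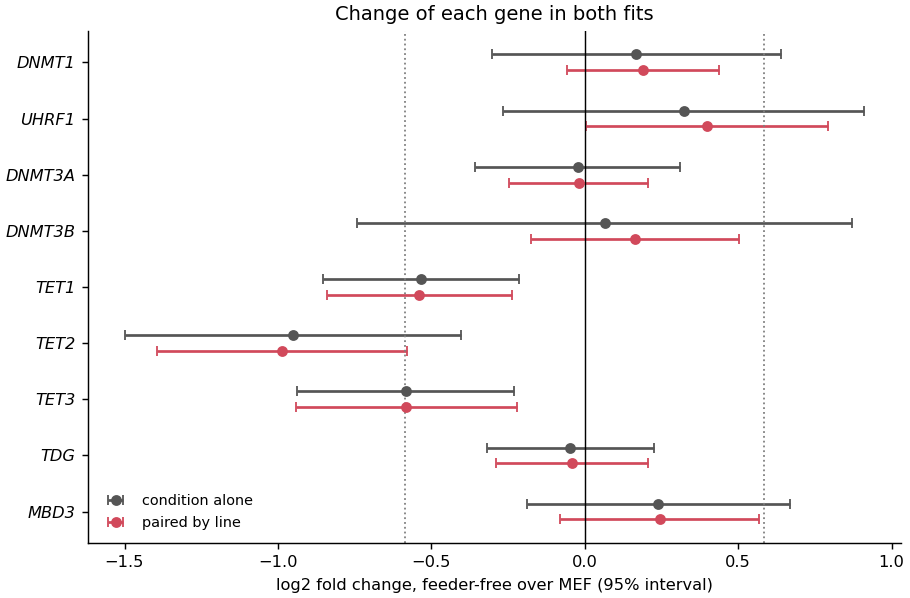
Fitted log2 fold change of feeder-free over MEF for each gene with its 95% interval, from the fit on condition alone (grey) and the fit paired by line (red), with dotted lines at the fold change threshold of 1.5. The intervals of the 3 TET genes lie below 0 in both fits, and pairing shortens the interval of DNMT3B the most.

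The TET genes span 112203 to 143353 bases, and only genes of 100 to 150 kb were set beside them, with no trend over span fitted. Among the 957 other tested genes that span 100 to 150 kb, the median log2 fold change was -0.10 against 0.01 over all genes tested, and 60.2 percent were below 0. In the paired fit 5.54 percent of these genes passed as lower and 6.17 percent as higher, against 4.53 and 5.52 percent of all genes, and 12.9 percent were lower at an adjusted P-value under 0.05 at any fold, against 8.12 percent of all genes. The part of span in the TET difference was not tested. The 5 pluripotency markers also had log2 fold changes below 0, from -0.58 to -0.15 with a median of -0.35, and their summed level was 3338 to 3802 CPM on MEF and 2914 to 3033 CPM without feeders, with no overlap. At an adjusted P-value under 0.05 at any fold, edgeR's test had 1 of the 5 on condition alone and 3 in the paired fit. Of all genes, 1.93 percent were under it on condition alone, and in the paired fit 8.12 percent were lower and 7.67 percent higher. The gene on condition alone, *SALL4*, named after its values were seen, was at -0.58 (adjusted p = 0.0426 on condition alone and 0.00614 paired, by edgeR's test), a difference of the size of those of *TET1* and *TET3*. The part of pluripotent cell share in the TET difference was not tested. *DNMT3A*, which spans 103377 bases, had a log2 fold change of -0.02.

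The de novo methyltransferases had no detectable difference between conditions. *DNMT3B*, on chromosome 13 from 62142409 to 62176735, had 594 CPM in line A, 1097 in line C, 1716 in line D and 601 in line E on MEF, and 748, 976, 1501 and 968 CPM in feeder-free conditions. The lines were far apart. Line D was the highest and line A the lowest in both, and lines A and E had more *DNMT3B* in feeder-free conditions (log2 ratios of 0.33 and 0.69) while lines C and D had less (-0.17 and -0.19). Over lines *DNMT3B* averaged 1002 ± 531 CPM (SD, n = 4) with feeders and 1048 ± 319 CPM (SD, n = 4) without, and the fitted log2 fold change was 0.07 (standard error 0.36, 95% interval -0.74 to 0.87, adjusted p = 0.946 by edgeR's quasi-likelihood test). With lines paired the interval was -0.18 to 0.50, which leaves out a change of 1.5-fold in either direction. *DNMT3A*, on chromosome 11 from 73971517 to 74074893, ranged from 156 to 212 CPM on MEF and from 152 to 204 CPM without feeders, with a fitted log2 fold change of -0.02 (95% interval -0.36 to 0.31, adjusted p = 0.953 from edgeR's test). Its sign changed with the scaling, to 0.01 without scaling beyond library size.

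The maintenance genes were higher in feeder-free conditions in most lines without passing. *DNMT1*, on chromosome 7 from 14679336 to 14730638, had 150, 253, 227 and 151 CPM on MEF in lines A, C, D and E and 170, 262, 236 and 210 CPM in feeder-free conditions. Each line was higher in feeder-free conditions, as 20.2 percent of all genes tested were, but the groups overlapped widely, since lines C and D were above lines A and E in both. The log2 fold change was 0.17 (standard error 0.21, 95% interval -0.30 to 0.64, adjusted p = 0.705 by edgeR's quasi-likelihood test), and 0.19 in the paired fit (adjusted p = 0.270 from edgeR's test). *UHRF1*, on chromosome 7 from 19223876 to 19257799, had 64.1, 124, 90.9 and 48.8 CPM on MEF in the same order of lines and 84.4, 118, 102 and 106 CPM in feeder-free conditions. The large difference was in line E, with a log2 ratio of 1.12, while line C had -0.07. The log2 fold change was 0.32 (standard error 0.26, 95% interval -0.27 to 0.91, adjusted p = 0.527 from edgeR's test) and 0.40 in the paired fit (adjusted p = 0.152 from edgeR's test). The *UHRF1* levels of the lines spread over 2.55-fold on MEF and 1.40-fold in feeder-free conditions. On the log2 CPM scale the SD between lines was larger on MEF for 7 of the 9 genes, *TET1* and *TET2* being the others, and for 51.6 percent of all genes tested.

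*TDG*, on chromosome 5 from 67632492 to 67653342, was nearly level, at 49.3 to 63.7 CPM on MEF and 53.6 to 64.3 CPM in feeder-free conditions. Its log2 fold change was -0.05 (standard error 0.12, 95% interval -0.32 to 0.23, adjusted p = 0.873 by edgeR's quasi-likelihood test), an interval that leaves out a 1.5-fold change either way. *MBD3*, on chromosome 7 from 43960112 to 43968936, had 45.8, 60.1, 55.3 and 36.3 CPM on MEF in lines A, C, D and E and 43.3, 60.1, 70.2 and 59.6 CPM in feeder-free conditions. Lines D and E were higher and lines A and C about level, and the log2 fold change was 0.24 (95% interval -0.19 to 0.67, adjusted p = 0.517 from edgeR's test). *MBD3* overlaps LOC112447412, an annotated lncRNA whose counts were at most 3.43 percent of those of *MBD3* in any library, and each gene that overlaps *DNMT1*, *DNMT3A* or *UHRF1* had at most 14 counts in any library. Whether counting used the strand is not given in the sources used here.

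**Figure D3:**
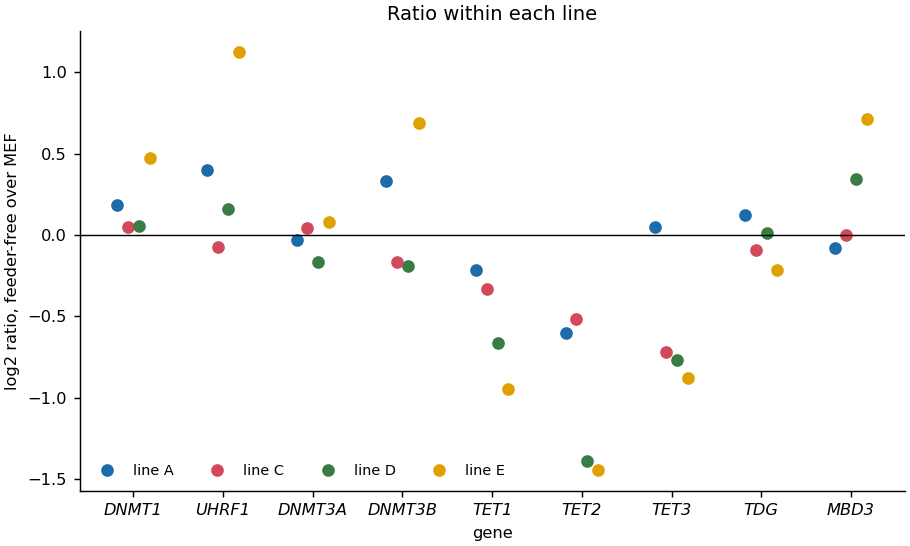
Log2 ratio of feeder-free over MEF (vertical axis) within each of the 4 bESC lines, by gene. All 4 lines are below 0 for TET1 and TET2 and all but line A for TET3, and line E has the highest ratio for DNMT1, UHRF1, DNMT3A, DNMT3B and MBD3.

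The within-line ratios place line E at an end of the range for all 9 genes. How often line E lies at an end over all genes tested was not counted. Line E had the highest ratio for *DNMT1* (0.47), *UHRF1* (1.12), *DNMT3A* (0.08), *DNMT3B* (0.69) and *MBD3* (0.71), and the most negative ratio for *TET1*, *TET2*, *TET3* and *TDG*. Ratios of a pair of genes were compared between the libraries of a line, so that gene length cancels. *DNMT1* relative to *TET1* was higher without feeders for 4 of 4 lines, by 0.40 (A), 0.38 (C), 0.72 (D) and 1.42 (E) on the log2 scale. This direction follows from *DNMT1* being higher and *TET1* lower in each line and is no separate result. *DNMT3B* relative to *TET1* was higher by 0.55, 0.16, 0.47 and 1.64 in the same order of lines. *DNMT3B* relative to *DNMT3A* was higher in lines A and E only, at a mean log2 difference of 0.18 between conditions, so the ratio of the de novo enzymes had no common direction. *TET1* relative to *TET2* was higher without feeders for 4 of 4 lines, at a mean of 0.45. *UHRF1* relative to *DNMT1* and *TET3* relative to *TET2* were higher in 3 of 4 lines and lower in line C (-0.12 and -0.21). Such ratios were not taken over other genes.

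A test of the 3 line terms in the paired fit asked which of the 9 genes differed between lines whatever the condition. *DNMT3B* (adjusted p = 0.0143 by edgeR's quasi-likelihood test) and *DNMT1* (adjusted p = 0.0440) passed, 2 of 9, where 11.8 percent of all genes tested did. Lines C and D were the higher pair for both genes in both conditions, though without feeders line C was close to line E for *DNMT3B* (976 and 968 CPM). *DNMT3A* and *UHRF1* had adjusted p of 0.162 and 0.147 and the TET genes 0.248 to 0.945. The spread between the lines of *DNMT3B* was 2.89-fold on MEF and 2.01-fold in feeder-free conditions. Over the 8 libraries, the genes whose log2 CPM was most like that of *DNMT3B* were *RCOR1*, *PPP4R3A* and *PLD2*, with Pearson's r of 0.978, 0.977 and 0.974, and those most like *TET2* were *PPP4R3B*, *C23H6orf89* and *GRSF1*, with r of 0.987, 0.987 and 0.986. These are descriptions over 8 libraries of 4 lines, which are not independent.

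On MEF, replication genes were split between lines as the maintenance genes were. The summed level of 20 S-phase genes on MEF was 3014 CPM in line A and 2759 in line E, against 4007 in line C and 3936 in line D, the same split as for *DNMT1*, *UHRF1* and *DNMT3B*. In feeder-free conditions it was 3165 CPM in line A, 4057 in line C, 4286 in line D and 3796 in line E. There line D had the highest sum, whereas line C had the most *DNMT1* and *UHRF1*. The MEF libraries of lines A and E also had the smaller totals, 44268717 and 45206672 counts, against 54296425 and 47836940 in lines C and D. The part of S-phase share or depth in the line pattern was not tested. Of the 20 S-phase genes 1, *CCNE2*, passed on condition alone, as higher, named after its values were seen, where 0.724 percent of all genes did. The list had a median log2 fold change of 0.22 against 0.01 over all genes tested. *MCM2* and *RRM2*, named by mean CPM, had log2 fold changes of -0.03 and 0.53.

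**Figure D4:**
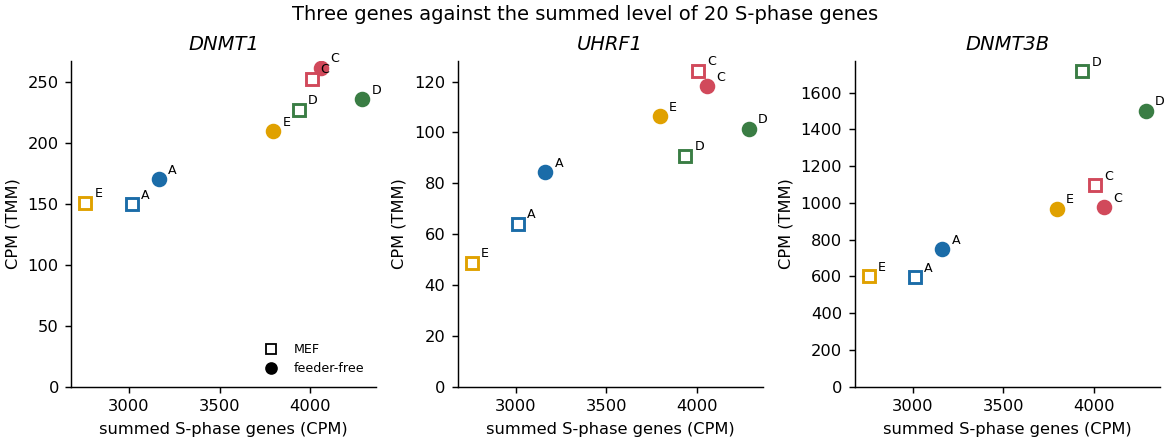
CPM of DNMT1, UHRF1 and DNMT3B (vertical axes, from 0) against the summed CPM of 20 S-phase genes (horizontal axis, not from 0) in the 8 libraries, with open squares for MEF, filled circles for feeder-free and letters for lines. The MEF libraries of lines A and E, and line A without feeders, are low on both axes.

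Other genes of the pathway were taken from lists of 68 partner genes, 65 of which had enough counts to be tested. On condition alone 0 passed as higher and 2 as lower, *SETDB1* and *GATAD2B*, against 0.724 and 1.00 percent of all genes, and 20 of the 65 had an unadjusted P-value under 0.05, against 21.6 percent of all genes. In the paired fit (replicate block) 2 passed as higher and 4 as lower, shares near the 5.52 and 4.53 percent of all genes. The median log2 fold change of the 65 was -0.08. *SETDB1*, the H3K9 methyltransferase that acts with *TRIM28* at methylated repeats, had 74.0, 73.4, 71.8 and 67.0 CPM on MEF in lines A, C, D and E and 47.2, 52.8, 45.1 and 44.9 CPM in feeder-free conditions, with a wide gap between the groups. It fell by 0.59 on the log2 scale (standard error 0.10, adjusted p = 0.0331 by edgeR's quasi-likelihood test). The call depended on the setting and on most libraries. *SETDB1* passed by limma-voom (-0.59, adjusted p = 0.0389) and by edgeR's likelihood ratio test (-0.59, adjusted p = 0.00333). Under RLE size factors, no scaling, no filter, at least 10 counts or DESeq2, *SETDB1* had log2 fold changes of -0.58, -0.55, -0.57, -0.58 and -0.58 and did not pass. Each was short of the fold threshold, and without scaling the adjusted p was also above 0.05 (0.0515 by edgeR's quasi-likelihood test). *SETDB1* passed in 1 of 8 fits with a library left out (adjusted p of 0.0370 to 0.116 by edgeR's test), the one without line A in feeder-free conditions. With lines paired it passed without line C or E and not without A or D. *TRIM28*, of the 13 recruitment genes named by mean CPM, was at -0.20 on the log2 scale (adjusted p = 0.441 by edgeR's test).

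*GATAD2B*, a NuRD subunit like MBD3, had 69.6 ± 9.35 CPM (SD, n = 4) with feeders and 42.0 ± 2.21 CPM (SD, n = 4) without, and fell by 0.73 on the log2 scale (standard error 0.12, adjusted p = 0.0331 by edgeR's quasi-likelihood test). It ranged from 58.6 to 79.5 CPM on MEF and from 38.9 to 43.9 CPM in feeder-free conditions. *GATAD2B* too passed on condition alone in 1 of 8 fits with a library left out, again the one without line A in feeder-free conditions (adjusted p of 0.0370 to 0.116 by edgeR's test), while with lines paired it passed without any 1 line (0.00785 to 0.0279). Of the other 11 NuRD genes tested none passed in either edgeR fit, and the list of 12 held 5 at an unadjusted P-value under 0.05, a level that 21.6 percent of all genes reached. The log2 fold change of *HDAC2*, named by mean CPM, was -0.25, and the median of the list of 12 was -0.19.

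Among the genes that serve TET activity, *CXXC4* and *D2HGDH* passed as lower in edgeR's paired fit and not in its fit on condition alone. Their paired log2 fold changes were -0.64 and -0.61 (adjusted p = 0.0203 and 0.0333 from edgeR's quasi-likelihood test, against 0.108 and 0.102 on condition alone). By DESeq2 on condition alone *CXXC4* passed as lower (-0.62, adjusted p = 0.0384). *D2HGDH* fell short of the fold threshold there (-0.58, adjusted p = 0.0240 by DESeq2). With lines paired *CXXC4* passed without line A but not without C, D or E (0.0148 to 0.0967 by edgeR's test). *D2HGDH* passed without line E but not without A, C or D (0.0426 to 0.194). *CXXC4* encodes a CXXC-domain protein known to bind TET2, and *D2HGDH* encodes the dehydrogenase that clears D-2-hydroxyglutarate, an inhibitor of TET enzymes. *IDH2*, a mitochondrial enzyme that makes 2-oxoglutarate, named from this list of 10 by mean CPM, had a log2 fold change of -0.08. Among the base excision and GADD45 genes *GADD45A* and *GADD45B*, stress-induced genes proposed to take part in active demethylation, passed as higher in the paired fit. *GADD45B* had 1.40 to 3.35 CPM on MEF and 3.07, 6.57, 12.4 and 7.00 CPM without feeders in lines A, C, D and E, or 1.41 on the log2 scale in that fit (adjusted p = 0.0237 by edgeR's test). *GADD45A* had 10.6 to 13.1 CPM on MEF and 12.02 to 32.8 CPM in feeder-free conditions, where line A alone stayed within the MEF range. *GADD45G* of the same list went the other way and did not pass. It was lower in every line, at -0.97 in the paired fit (adjusted p = 0.0565 by edgeR's test). Its means were low, at 2.43 CPM on MEF and 1.15 CPM without feeders. Both GADD45 calls ended when line C, D or E was left out and held without line A, with adjusted p of 0.00751 to 0.191 for *GADD45A* and 0.00520 to 0.104 for *GADD45B* by edgeR's test. *PARP1*, named by mean CPM, had a log2 fold change of -0.28.

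None of the 9 methyl-CpG readers passed in either edgeR fit (1 had an unadjusted P-value under 0.05 on condition alone), and *MBD1*, named by mean CPM, had a log2 fold change of 0.07. Nor did the 6 genes of the S-adenosylmethionine cycle, which supplies the methyl group, of which 4 of 6 had an unadjusted P-value under 0.05 against 21.6 percent of all genes, with *AHCY* at -0.19. Of the other writers *UHRF2* had -0.25, and *DNMT3L*, the cofactor of de novo methylation, had at most 18 counts in any library and was not tested. Of 10 germline genes known to be silenced by promoter methylation 6 were not tested, with at most 14 counts in any library. The 4 tested had mean levels under 6 CPM, and 0 passed on condition alone (0 had an unadjusted P-value under 0.05). *PIWIL2*, at the low means of 0.59 and 1.28 CPM and named after its values were seen, passed as higher in the paired fit. Its adjusted p was 0.0480 by edgeR's quasi-likelihood test, and 5.52 percent of all genes passed as higher in that fit. How the call holds with a line left out was not examined. *SYCP3* had 17.1 CPM in line E on MEF against 1.83 to 2.83 CPM in the other lines there, and *MAEL* ranged from 0.309 to 7.27 CPM on MEF and from 0.188 to 7.56 CPM in feeder-free conditions.

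**Figure D5:**
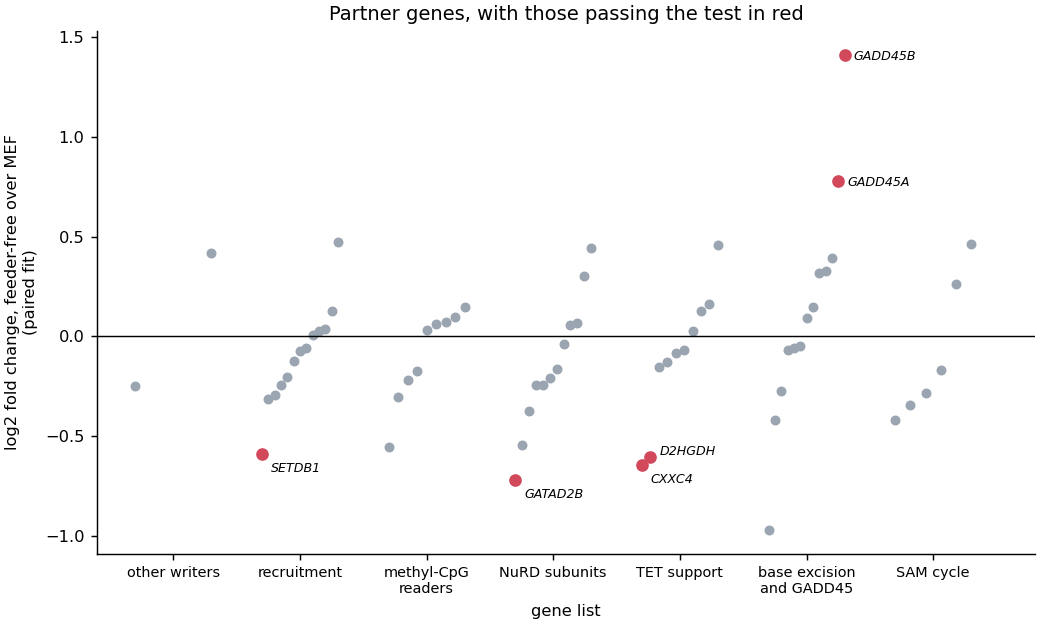
Log2 fold change of feeder-free over MEF in the fit paired by line (vertical axis) for the 65 tested partner genes, by list, with genes that passed (adjusted p below 0.05, at least 1.5-fold) in red. GADD45A and GADD45B lie above 0 and SETDB1, GATAD2B, CXXC4 and D2HGDH below.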

How the data were processed

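The authors trimmed reads with Trimmomatic, aligned them to ARS-UCD2.0 with STAR, dropped optical duplicates and poorly mapped reads, and deposited raw counts per gene made with featureCounts (Subread 1.6.2 in the submitters' notes). They also sequenced MEF alone and describe subtracting what aligned to the bovine genome, a step not repeated here. The counts list 32640 genes, 3 of them blank and excluded, and 0 columns went unused. Libraries within a condition differed beyond sampling noise in all 12 pairs (chi-square per degree of freedom at least 43.7). Conditions were compared in R 4.3.3 using edgeR 4.0.16 (filterByExpr, TMM, glmQLFit, glmQLFTest, two-sided, Benjamini-Hochberg over 15744 genes) on condition alone and with line as a paired term (replicate block). The line letter pairs the libraries: deviations from the condition mean correlated at 0.421 to 0.664 within lines and -0.523 to 0.249 between lines. Replicates are lines, with 1 library per line and condition. Alternatives were DESeq2 1.42.0, limma-voom (limma 3.58.1), edgeR's likelihood ratio test, other scalings, filters and thresholds, and libraries left out. Coordinates and spans are from the RefSeq table of ARS-UCD2.0, in which all 9 genes matched. Transcript lengths were not used here, so CPM served only to choose which genes of a list to name, not to compare transcript levels between genes. Fits were tested on simulated counts. The members and lists were chosen with earlier results of these data known. Named partner genes were those called in either fit and the highest of each list by mean CPM. The genes most like a member were the 3 with the highest Pearson's r, for DNMT3B and for members called in either fit.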

Additional observations from a re-analysis of the deposited data

Results flagged for a closer look

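Of 38 sets of 4 libraries, 2 had a library set apart from the rest, and chance alone gives about 1.9. For *TDG*, line A on MEF had 5.63 log2 CPM while the MEF libraries of the other lines had 5.97 to 5.99. For total counts, line D without feeders had 102400000 (rounded), against 49670000 to 51320000 in lines A, C and E without feeders.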

How the results depend on the processing

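On condition alone 272 genes passed. The number was 174 without scaling beyond library size, 170 without the filter on low counts, 412 with at least 10 counts in every library, 1212 with DESeq2, 837 with edgeR's likelihood ratio test, 1582 with the replicate block, 63 when a log2 fold change of 1.5 was required, and 0 to 490 with 1 library left out. Of the 9 genes 0 passed as lower, against 1 (*TET2*) with DESeq2, the likelihood ratio test or the replicate block and 0 to 2 with 1 library left out, the 2 being *TET1* and *TET2* when line A without feeders is left out. In the paired fit 1 passed, and 1 to 3 with 1 line left out, the 3 being the TET genes without line A, where 1651 of 15764 genes passed. Partner genes passing as higher numbered 0, against 2 with DESeq2, 1 with the likelihood ratio test, 2 with the replicate block and 0 to 2 with 1 library left out. Those passing as lower numbered 2, and also 2 with DESeq2, there *GATAD2B* and *CXXC4*. The number was 1 with RLE size factors, without scaling, without the filter or with at least 10 counts. It was 4 with the replicate block, 0 at the stricter fold and 0 to 2 with 1 library left out. In the paired fit partner genes passing numbered 2 higher and 4 lower, 2 lower without scaling, and 0 to 2 higher and 1 to 4 lower with 1 line left out. Between lines 2 of the 9 genes passed, where 11.8 percent of all genes tested did, and 4 passed by DESeq2's likelihood ratio test. The genes added there, *DNMT3A* and *UHRF1*, were near the limit (adjusted p = 0.0490 and 0.0493 by DESeq2's likelihood ratio test). The share of all genes that passed DESeq2's test between lines was not counted. The log2 fold change of *DNMT3A* was 0.012 without scaling and -0.095 to 0.060 with 1 library left out, and that of *DNMT3B* was -0.16 to 0.46. The causes were not tested beyond what each setting changes. The part of depth in the spread between lines was not tested.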
